A study of Rattus norvegicus with 9 samples.

Results

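DNA replication and mitosis genes were followed in RNA-seq libraries of neonatal rat heart cells in which the level of the transcription factor TCF7L2 had been changed. The set holds 43 genes chosen by symbol, of 14607 genes listed in any of the 9 libraries. Of these, 23 copy DNA or control entry into S phase, and 20 act in mitosis. The cells were wild-type primary cardiomyocytes from newborn SD rats, freed from the heart by digestion with collagenase and pancreatic enzymes. The lenti-TCF7L2 group (3 libraries) received a lentivirus for overexpression of TCF7L2, and the lenti-shTCF7L2 group (3 libraries) a lentivirus with a short hairpin RNA against it. The lenti-NC group (3 libraries) received the vector control. All 3 groups shared 16 h of infection and 48 h of further culture with fetal bovine serum and antibiotics. The labels give neither the species of the TCF7L2 insert nor the promoter that drives it, and they do not say that replicates came from separate cultures. The p-values therefore measure the spread between these libraries, which may be technical.

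Before a cell divides, MCM helicase rings are loaded onto replication origins by CDC6 and CDT1, and are then fired with CDC45 and the GINS complex. Polymerases and the PCNA clamp copy the DNA, and ribonucleotide reductase and thymidylate synthase supply its building blocks. Cyclin E and E2F factors open S phase, and many replication genes carry E2F sites in their promoters. Mitosis genes peak later. Cyclins A and B with CDK1, the Aurora and Polo kinases, the spindle checkpoint and mitotic motors then condense and part the chromosomes. Many of their promoters carry the cell cycle genes homology region (CHR) together with CCAAT boxes, which bind NF-Y. Rat cardiomyocytes leave the cell cycle in the first days after birth, while other cells of the heart can go on dividing in culture.

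The libraries held between 15085922 and 16478295 expected counts, the fragments per gene that RSEM estimates. All 43 members were listed in all 9 libraries, and all were among the 11761 genes tested. Tcf7l2 itself (Entrez gene 679869) stood at 142, 206 and 85.7 CPM (counts scaled to library size) with lenti-TCF7L2, at 25.6, 30.3 and 25.9 CPM with lenti-shTCF7L2, and at 40.0, 36.4 and 34.1 CPM with lenti-NC. It was raised in every lenti-TCF7L2 library (log2 difference from lenti-NC 1.97, SE 0.267, adjusted p = 8.5e-04). With lenti-shTCF7L2 all 3 values lay below all 3 control values, but that log2 difference (-0.43) missed the threshold in the joint fit (adjusted p = 0.511) and met it in a fit of those 6 libraries alone (1.8e-04). The 8 cardiomyocyte markers were present in every library, with summed levels of 18078 to 21268 CPM with lenti-TCF7L2, 36501 to 37857 with lenti-shTCF7L2 and 39712 to 41529 with lenti-NC. The cultures also held 8 fibroblast markers, at 37162 to 44621, 37456 to 39463 and 34389 to 35539 CPM in the same groups. Across genes, the lowest correlation between replicates (Pearson's r, log2 CPM) was 0.948 for lenti-TCF7L2 and 0.994 for each other group. Library 3 of lenti-TCF7L2 stood apart most by gene length: its members of up to 2000 bases had a median of 0.49 above the lenti-NC mean on the log2 scale, and those over 4000 bases a median of -0.29. Over all tested genes these medians were 0.33 and -0.56 in library 3, 0.11 and -0.17 in library 1, and 0.0019 and 0.037 in library 2.

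Promoter sequences show how the classes differ in the letters near their start sites. RefSeq promoters of the GRCr8 build, from 250 bases before to 50 after the start, were found for 18 of the 23 replication genes and 17 of the 20 mitosis genes. The sequences shown are those of the replication genes with the firmest differences with lenti-TCF7L2 (Mcm5, Mcm6, Cdt1 and Rrm1), the mitosis gene that rose (Cdk1), and 2 mitosis genes whose lenti-shTCF7L2 and lenti-NC values did not overlap, in opposite directions, although neither passed the test (Cdc20 and Top2a). Each is written 5′ to 3′ on the strand of its gene, and capitals mark matches, on either strand, to an E2F site, a CHR element or a CCAAT box.
Mcm5 (chr19:13488563-13488862, plus strand): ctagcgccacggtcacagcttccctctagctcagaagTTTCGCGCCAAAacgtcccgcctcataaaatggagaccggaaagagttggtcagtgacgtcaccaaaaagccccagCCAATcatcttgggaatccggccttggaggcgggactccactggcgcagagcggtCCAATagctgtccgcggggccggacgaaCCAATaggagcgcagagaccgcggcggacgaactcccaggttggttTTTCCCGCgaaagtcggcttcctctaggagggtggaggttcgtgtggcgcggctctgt
Mcm6 (chr13:42404303-42404602, minus strand): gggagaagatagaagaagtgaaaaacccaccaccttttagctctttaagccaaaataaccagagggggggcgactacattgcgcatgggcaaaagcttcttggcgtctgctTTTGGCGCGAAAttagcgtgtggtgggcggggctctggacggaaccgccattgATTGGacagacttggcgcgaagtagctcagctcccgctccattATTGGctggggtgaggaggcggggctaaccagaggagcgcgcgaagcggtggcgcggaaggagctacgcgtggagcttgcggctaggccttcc
Cdt1 (chr19:67528999-67529298, plus strand): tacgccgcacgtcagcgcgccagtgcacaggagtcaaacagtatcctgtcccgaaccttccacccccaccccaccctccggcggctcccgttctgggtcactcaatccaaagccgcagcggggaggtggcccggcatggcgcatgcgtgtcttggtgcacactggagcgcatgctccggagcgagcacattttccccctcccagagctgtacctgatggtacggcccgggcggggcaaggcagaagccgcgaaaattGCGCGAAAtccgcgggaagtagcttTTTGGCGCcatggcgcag
Rrm1 (chr1:166235654-166235953, plus strand): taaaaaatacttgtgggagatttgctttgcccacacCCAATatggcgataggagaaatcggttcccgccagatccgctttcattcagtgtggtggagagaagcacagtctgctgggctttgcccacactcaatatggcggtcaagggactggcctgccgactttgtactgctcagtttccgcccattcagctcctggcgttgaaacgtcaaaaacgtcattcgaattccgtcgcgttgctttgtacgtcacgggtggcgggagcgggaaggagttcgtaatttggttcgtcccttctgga
Cdk1 (chr20:19265043-19265342, plus strand): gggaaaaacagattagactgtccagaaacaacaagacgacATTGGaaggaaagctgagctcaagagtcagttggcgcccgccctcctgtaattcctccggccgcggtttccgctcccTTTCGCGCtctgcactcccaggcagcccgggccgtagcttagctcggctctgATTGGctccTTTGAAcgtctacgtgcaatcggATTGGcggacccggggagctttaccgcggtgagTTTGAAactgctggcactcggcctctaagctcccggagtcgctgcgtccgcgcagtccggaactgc
Cdc20 (chr5:137255750-137256049, minus strand): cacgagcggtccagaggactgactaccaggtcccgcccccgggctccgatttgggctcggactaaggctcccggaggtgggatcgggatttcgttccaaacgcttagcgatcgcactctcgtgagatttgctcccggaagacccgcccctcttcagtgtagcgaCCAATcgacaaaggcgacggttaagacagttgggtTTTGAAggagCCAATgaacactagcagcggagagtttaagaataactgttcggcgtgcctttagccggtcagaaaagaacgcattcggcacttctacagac
Top2a (chr10:84473044-84473343, minus strand): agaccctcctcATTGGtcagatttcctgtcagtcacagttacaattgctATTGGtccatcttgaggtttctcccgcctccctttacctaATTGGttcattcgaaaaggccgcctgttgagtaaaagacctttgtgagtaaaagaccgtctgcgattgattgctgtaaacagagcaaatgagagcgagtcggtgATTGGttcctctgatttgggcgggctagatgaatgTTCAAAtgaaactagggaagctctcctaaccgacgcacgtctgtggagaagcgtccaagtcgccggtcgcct
In the Mcm6 promoter the E2F matches overlap and lie 139 to 128 bases before the start, with CCAAT boxes at 86 and 43. The Cdc20 promoter has its CHR 51 bases before the start, between CCAAT boxes at 86 and 41. The Rrm1 stretch holds 1 CCAAT box and neither of the other motifs.

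Counted over the set, 55.6% of replication promoters (10 of 18) held an E2F match (TTTGGCGC, TTTGCCGC, TTTCGCGC or TTTCCCGC, either strand), against 5.88% of mitosis promoters and 4.07% of the 9572 promoters of tested genes. All 5 Mcm promoters in the table (Mcm4 was not in it) held at least 1. The CHR (TTTGAA, either strand) stood in 70.6% of mitosis promoters (12 of 17), 5.56% of replication promoters and 11.3% of those of tested genes. The CCAAT box (either strand) was common in both classes, at 72.2% of replication and 76.5% of mitosis promoters, against 37.3% of those of tested genes. A CHR and a CCAAT box occurred together in 58.8% of mitosis promoters, in 0% of replication promoters and in 4.60% of those of tested genes. The TCF/LEF letters (ATCAAAG or TTCAAAG, either strand, the second overlapping the CHR) were found in Mcm2 and Cdk1 alone among members, a share of 5.56% and 5.88% of the classes, against 5.47% of promoters of tested genes. Over all 33469 promoters in the table the shares were 2.14% for E2F, 18.3% for CHR, 37.5% for CCAAT and 8.73% for TCF/LEF. A match is a run of letters, not a measured binding site.

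**Figure D1:**
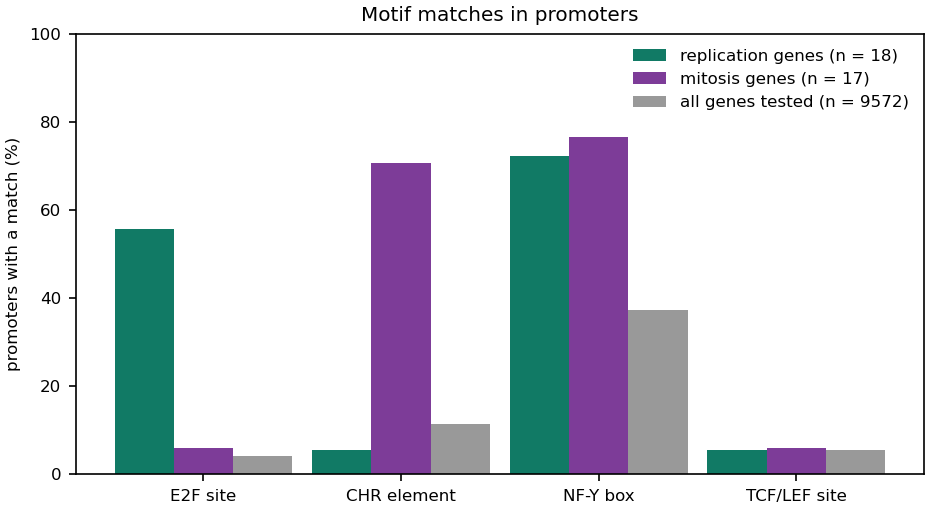
Share of promoters, in percent, that hold each motif, for replication genes (18 promoters), mitosis genes (17) and all tested genes (9572). E2F matches stand highest in replication promoters (55.6%) and the CHR in mitosis promoters (70.6%).

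Per unit of gene length the classes stood at like levels in the control cells. Replication members had a median of 7.98 FPKM (fragments scaled to gene length and library size) with lenti-NC, with a range from 2.23 for Pola1, the catalytic subunit of polymerase α, to 42.4 for Rrm1, the large subunit of ribonucleotide reductase. Mitosis members had a median of 8.28 FPKM, from 2.75 for Cenpf, a kinetochore protein, to 23.0 for Cdk1. Expected counts per library ran from 28 to 2017 for replication members and from 95 to 1772 for mitosis members, all above a floor of 3 counts. The median coefficient of variation between replicates was 14.0% with lenti-TCF7L2, 6.70% with lenti-shTCF7L2 and 6.55% with lenti-NC for replication members. For mitosis members it was 13.1%, 5.35% and 9.48% in the same groups. Cdc6, Gins2, Prim1 and Ccnb1 had fractional expected counts, which mark reads shared with other genes, and their values are less certain.

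**Figure D2:**
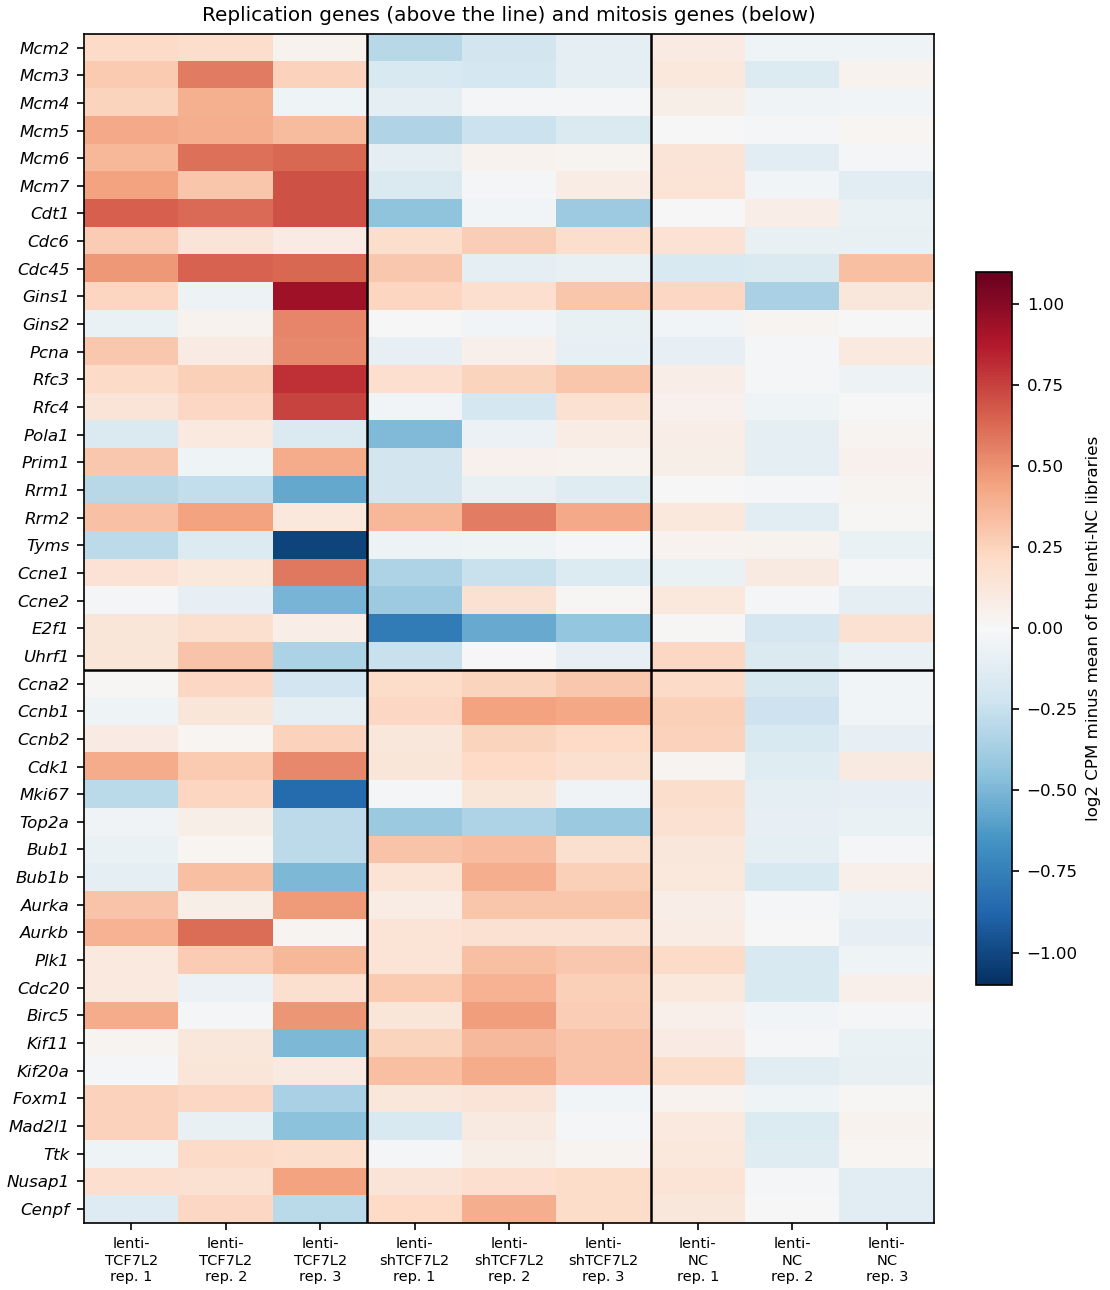
Log2 CPM of each of the 43 members in each of the 9 libraries, relative to the lenti-NC mean of that gene, with replication genes above mitosis genes. Mcm3, Mcm5, Mcm6, Mcm7 and Cdt1 are raised in the 3 lenti-TCF7L2 libraries, while Rrm1 is lower there.

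Overexpression was set against the control virus to ask what raised TCF7L2 does to these genes. Of 23 replication members 6 rose (Mcm3, Mcm5, Mcm6, Mcm7, Cdt1 and Cdc45) and 1 fell (Rrm1), where 31.8% of all tested genes were called, 18% higher and 13.8% lower. The replication members' median log2 difference was 0.30, against 0.03 over all tested genes, and 19 of 23 differences were positive. Of 20 mitosis members 1 rose (Cdk1) and 0 fell, with a median of 0.07 and 12 positive differences. DESeq2 also called 6 replication members higher and 1 lower, and 1 mitosis member higher, where 17.1% of all genes were higher and 15.5% lower. At an unadjusted p under 0.05, 10 replication members were higher and 2 lower, and 4 mitosis members were higher and 0 lower. At that level 2920 of the 11761 tested genes were higher and 2265 lower. The share of replication members called higher, 26.1%, stood against the 18% of all genes; the difference between the classes carries no test. Cell type markers differed as well: 7 of 8 cardiomyocyte markers fell (median -0.98), 7 of 8 endothelial markers rose (median 2.07), 4 of 8 fibroblast markers rose and 1 fell (Postn), and 4 of 7 tested macrophage, 3 of 5 tested epicardial and 2 of 8 smooth muscle and pericyte markers rose. The part of these cells in the differences was not tested, and in bulk libraries fewer cells of a type and less RNA per cell cannot be told apart.

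**Figure D3:**
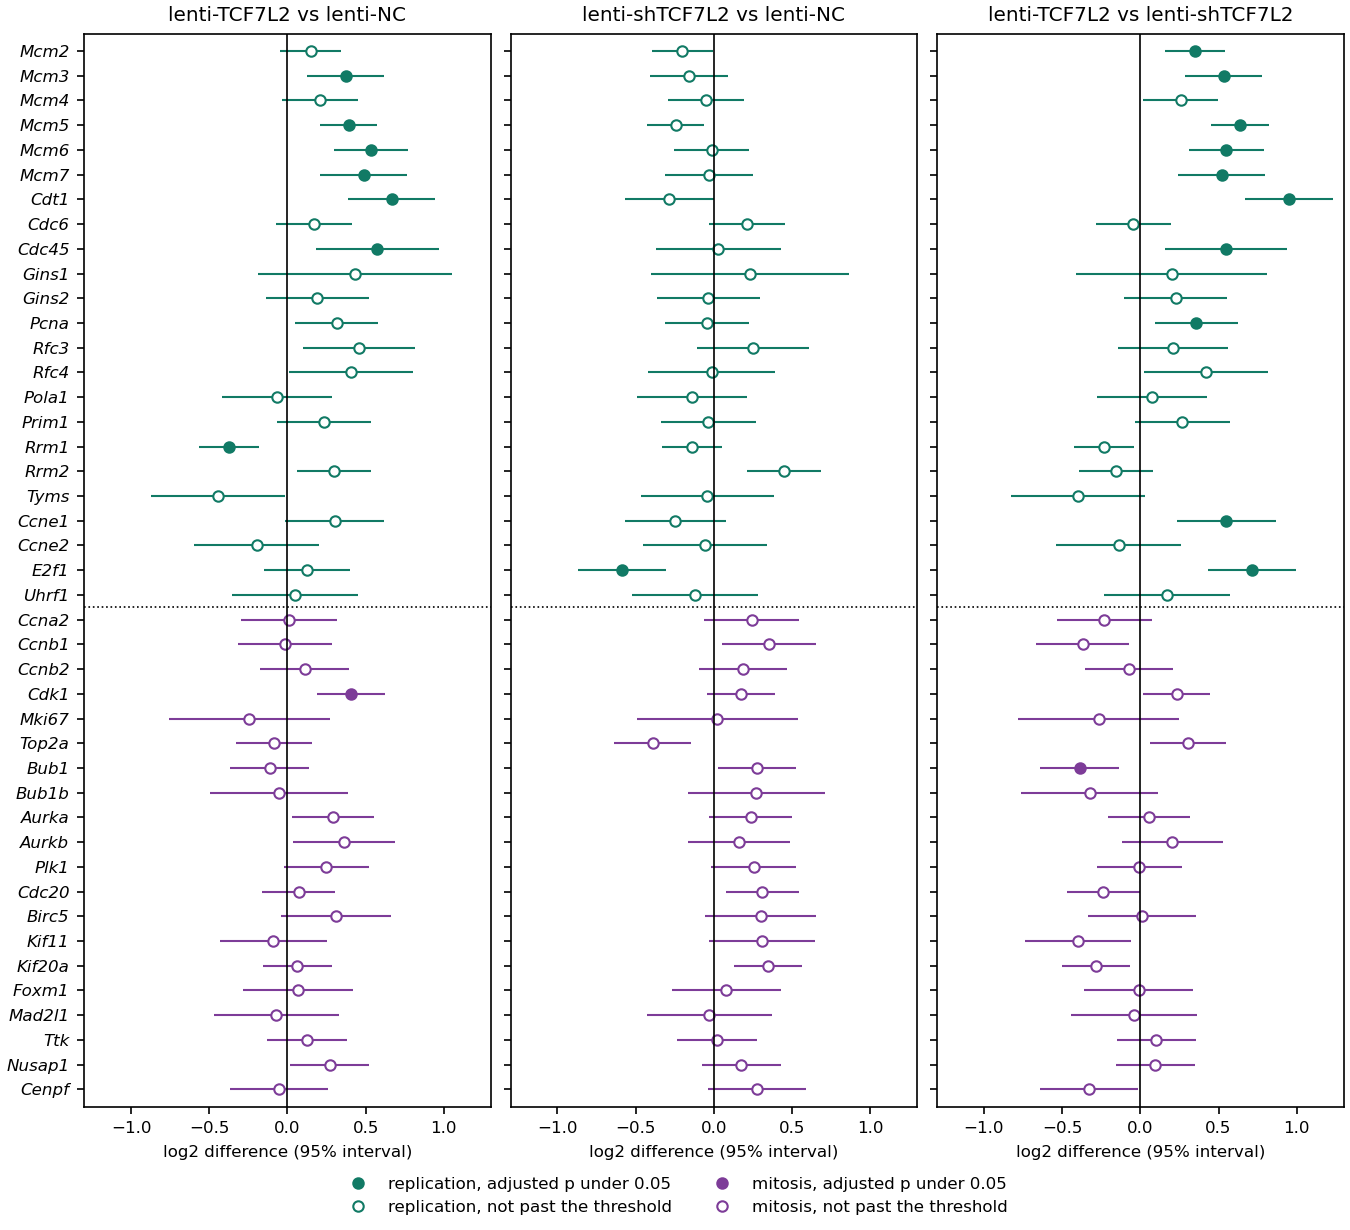
Log2 difference of each member with its 95% interval, for each TCF7L2 virus against the control virus and for the overexpressing virus against the hairpin virus, from left to right. In the first comparison replication members spread from -0.44 to 0.67 and mitosis members from -0.24 to 0.41.

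The MCM helicase genes differed in 1 direction. MCM2 to MCM7 form the ring that unwinds DNA at the fork. All 6 differences were positive (median 0.38), and 4 rose, where 18% of all tested genes did. With only the 6 libraries compared 2 rose, where 10.9% of genes did. The medians of the 3 lenti-TCF7L2 libraries against the lenti-NC mean were 0.32, 0.40 and 0.30, while the lenti-NC libraries stood at 0.10, -0.04 and -0.02. Mcm5 (Entrez gene 291885) had 27.7, 27.3 and 26.4 CPM with lenti-TCF7L2, 16.4, 17.5 and 18.5 with lenti-shTCF7L2, and 20.6, 20.4 and 21.0 with lenti-NC. All lenti-TCF7L2 values were highest and all lenti-shTCF7L2 values lowest, with no overlap between any groups. Mcm5 rose by 0.39 on the log2 scale (SE 0.0806, adjusted p = 0.00636), averaging 27.1 ± 0.681 CPM with lenti-TCF7L2 and 20.7 ± 0.297 with lenti-NC (SD, n = 3 each). Mcm6 (Entrez gene 29685) had 39.3, 46.5 and 47.4 CPM with lenti-TCF7L2, 28.4, 31.4 and 31.1 with lenti-shTCF7L2, and 33.7, 28.0 and 30.2 with lenti-NC. The lenti-TCF7L2 libraries lay above all others, while the other groups overlapped. Mcm6 rose by 0.54 (SE 0.105, adjusted p = 0.00519).

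Mcm7 (Entrez gene 288532) had 46.1, 42.0 and 55.0 CPM with lenti-TCF7L2, 30.4, 33.5 and 36.0 with lenti-shTCF7L2, and 37.7, 33.3 and 31.1 with lenti-NC. Its lenti-TCF7L2 values again stood clear of the rest, a rise of 0.49 (SE 0.123, adjusted p = 0.0161). Mcm3 (Entrez gene 316273) had 42.7, 51.9 and 41.7 CPM with lenti-TCF7L2, 31.0, 30.5 and 32.7 with lenti-shTCF7L2, and 37.8, 31.4 and 36.0 with lenti-NC. The lenti-TCF7L2 and lenti-NC groups did not overlap, and Mcm3 rose by 0.37 (SE 0.109, adjusted p = 0.0296). Mcm4 (Entrez gene 29728), among the most abundant replication members, had 73.2, 81.3 and 60.0 CPM with lenti-TCF7L2, 57.4, 61.0 and 61.2 with lenti-shTCF7L2, and 64.9, 60.3 and 60.5 with lenti-NC. Here the third lenti-TCF7L2 library lay below all lenti-NC values and within the lenti-shTCF7L2 range, and the difference of 0.21 did not pass (adjusted p = 0.166). Mcm2, shown after its values were seen, had 60.8, 59.9 and 54.1 CPM with lenti-TCF7L2, 42.5, 45.6 and 49.1 with lenti-shTCF7L2, and 56.0, 50.8 and 50.9 with lenti-NC. Its difference from lenti-NC was 0.15 (adjusted p = 0.212), with groups that overlapped.

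Among the genes that load and fire the helicase, Cdt1 had the largest difference of all members. CDT1 brings the MCM ring to the origin and is destroyed once S phase begins. Cdt1 (Entrez gene 292071) had 16.6, 16.2 and 17.1 CPM with lenti-TCF7L2, 7.66, 10.2 and 7.90 with lenti-shTCF7L2, and 10.4, 11.0 and 9.96 with lenti-NC. The lenti-TCF7L2 libraries were close to each other and far above the rest. Cdt1 rose 1.59-fold over lenti-NC (log2 difference 0.67, SE 0.123, adjusted p = 0.00378). Cdc45 (Entrez gene 287961), which completes the active helicase, had 8.44, 9.53 and 9.44 CPM with lenti-TCF7L2, 7.46, 5.61 and 5.71 with lenti-shTCF7L2, and 5.38, 5.39 and 7.62 with lenti-NC. The lenti-TCF7L2 values lay above all others, while the other groups overlapped, and it rose by 0.58 (SE 0.173, adjusted p = 0.0333). Cdc6, the other loader, differed by 0.17 (adjusted p = 0.253), and Gins1 and Gins2 of the GINS complex by 0.43 and 0.19 (adjusted p = 0.254 and 0.336). Gins1 was the most scattered of these, at 2.90, 2.35 and 4.78 CPM with lenti-TCF7L2 against 2.89, 1.89 and 2.67 with lenti-NC.

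None of the 5 fork synthesis genes passed in edgeR. At an unadjusted p under 0.05, 3 were higher and 0 lower, where 2920 and 2265 of the 11761 tested genes were. DESeq2 called 0 and limma 2, where they called 32.6% and 35.7% of all genes. Pcna (Entrez gene 25737), the sliding clamp, had 44.0, 38.2 and 52.0 CPM with lenti-TCF7L2, 33.7, 37.4 and 33.8 with lenti-shTCF7L2, and 33.8, 35.4 and 38.7 with lenti-NC. A single lenti-TCF7L2 value lay inside the control range, and the difference was 0.31 (adjusted p = 0.0699). Rfc3 and Rfc4, subunits of the clamp loader, differed by 0.46 and 0.41 (adjusted p = 0.0541 and 0.108) with no overlap between lenti-TCF7L2 and lenti-NC, and both were highest in library 3. Prim1, the primase, differed by 0.23 (adjusted p = 0.209) and Pola1 by -0.07 (adjusted p = 0.757).

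The nucleotide supply genes ran the other way in 2 of 3 cases. Rrm1 (Entrez gene 685579) had 107, 110.0 and 89.7 CPM with lenti-TCF7L2, 115, 125 and 121 with lenti-shTCF7L2, and 132, 130.2 and 135 with lenti-NC. The lenti-TCF7L2 values were lowest and the lenti-NC values highest, with no overlap between any groups. Rrm1 fell to 102 ± 11.0 CPM with lenti-TCF7L2, against 132 ± 2.33 with lenti-NC (SD, n = 3 each; 0.773-fold, log2 difference -0.37, SE 0.0849, adjusted p = 0.0104). Tyms, thymidylate synthase, had 21.0, 23.1 and 12.6 CPM with lenti-TCF7L2 against 26.4, 26.3 and 24.3 with lenti-NC. Its groups did not overlap either, but the scatter within lenti-TCF7L2 was wide and the difference of -0.44 did not pass (adjusted p = 0.104). Rrm2 (Entrez gene 362720), the small reductase subunit, whose level limits the enzyme in S phase, had 95.2, 104 and 82.3 CPM with lenti-TCF7L2, 98.3, 113 and 102 with lenti-shTCF7L2, and 82.6, 69.6 and 76.6 with lenti-NC. All lenti-shTCF7L2 values and 2 of 3 lenti-TCF7L2 values lay above the control range, and the difference with lenti-TCF7L2 was 0.30 (adjusted p = 0.0581).

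Of the 4 S phase entry genes 0 passed with lenti-TCF7L2 in edgeR, DESeq2 or limma, where 31.8%, 32.6% and 35.7% of all genes did. In edgeR 0 had an unadjusted p under 0.05, where 5185 of the 11761 tested genes had. E2f1 (Entrez gene 399489), the activating E2F factor, had 19.7, 20.3 and 18.8 CPM with lenti-TCF7L2, 10.4, 12.1 and 13.3 with lenti-shTCF7L2, and 18.0, 15.8 and 20.1 with lenti-NC. The lenti-TCF7L2 and lenti-NC values overlapped (difference 0.12, adjusted p = 0.46), and the lenti-shTCF7L2 values lay below both. Ccne1 and Ccne2, the E cyclins, differed by 0.30 and -0.20 (adjusted p = 0.128 and 0.418), and Uhrf1, which keeps DNA methylation after replication, by 0.05 (adjusted p = 0.857).

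**Figure D4:**
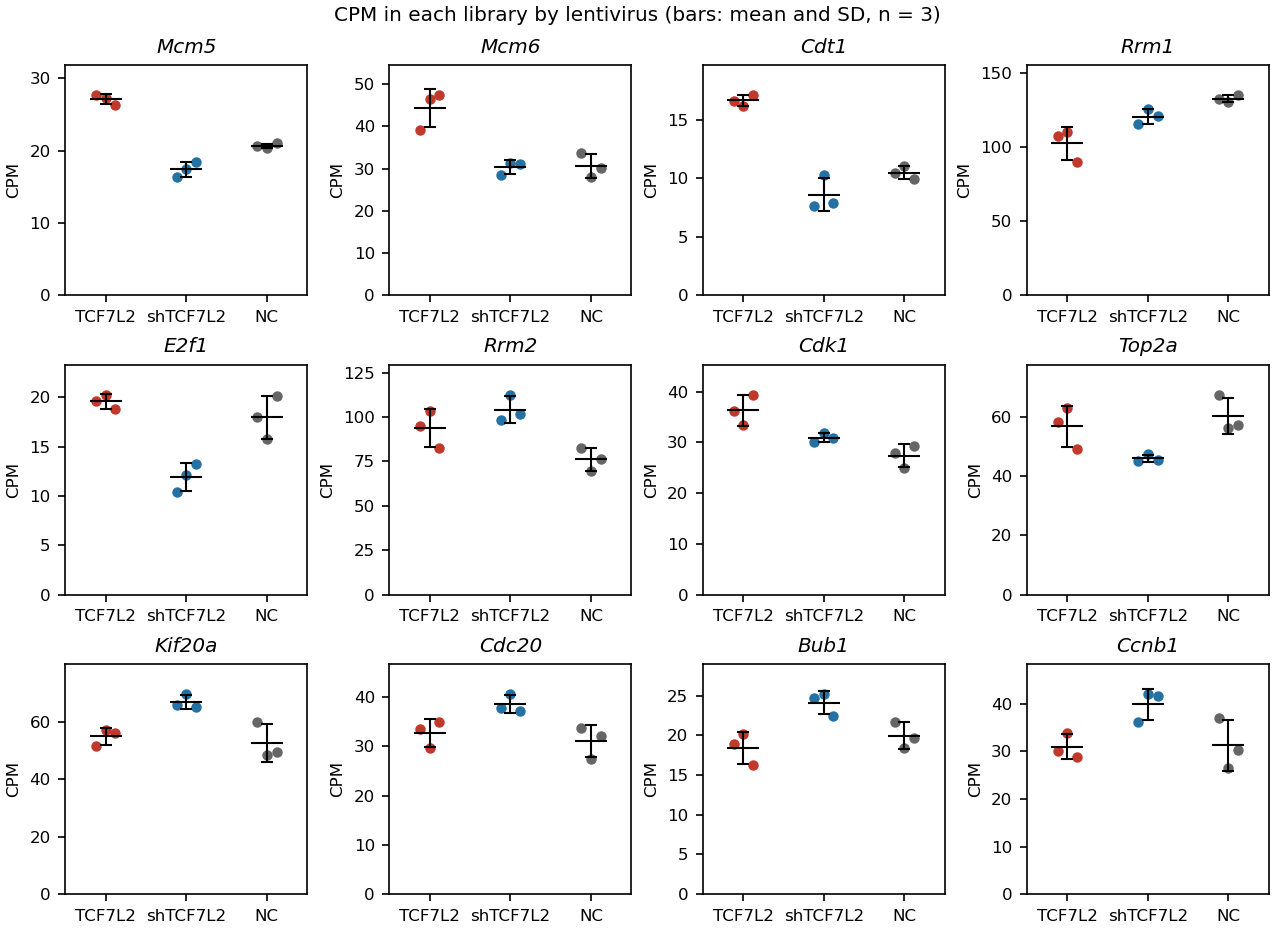
CPM of 12 members in each library, as points, with bars for the group mean and error bars for 1 SD (n = 3), in the order lenti-TCF7L2, lenti-shTCF7L2, lenti-NC. Mcm5, Mcm6 and Cdt1 are highest with lenti-TCF7L2, Rrm1 is lowest there, and E2f1 and Top2a are lowest with lenti-shTCF7L2.

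Among mitosis genes, Cdk1 (Entrez gene 54237), the kinase that drives entry into mitosis, was the most abundant per length and the only one called with lenti-TCF7L2. It had 36.2, 33.4 and 39.4 CPM with lenti-TCF7L2, 30.0, 31.7 and 30.9 with lenti-shTCF7L2, and 28.0, 24.9 and 29.3 with lenti-NC. The 3 groups stood in that order with no overlap, and Cdk1 rose by 0.41 (SE 0.0949, adjusted p = 0.0114). Its cyclin partners did not pass. Ccna2 (Entrez gene 114494) had 25.1, 29.4 and 21.6 CPM with lenti-TCF7L2, 28.8, 29.6 and 30.8 with lenti-shTCF7L2, and 28.9, 22.1 and 24.4 with lenti-NC. Its groups overlapped, and the difference of 0.01 with lenti-TCF7L2 had a 95% interval of -0.29 to 0.32. Ccnb2 (Entrez gene 363088) had 22.4, 21.3 and 25.1 CPM with lenti-TCF7L2, 23.0, 25.0 and 24.6 with lenti-shTCF7L2, and 25.2, 18.8 and 19.8 with lenti-NC, likewise overlapping (0.11, adjusted p = 0.52). Ccnb1 differed by -0.02.

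The mitotic kinases and their partners all had positive differences with lenti-TCF7L2 (median 0.30). Of these 4 genes 0 passed in edgeR, DESeq2 or limma, where 31.8%, 32.6% and 35.7% of all genes did. In edgeR 2 were higher and 0 lower at an unadjusted p under 0.05, where 2920 and 2265 of the 11761 tested genes were. Aurkb, the kinase that corrects chromosome attachment, differed by 0.36 (adjusted p = 0.0821), its partner survivin, Birc5, by 0.31 (0.158), the centrosome kinase Aurka by 0.29 (0.0846) and the Polo kinase Plk1 by 0.25 (0.143). The 5 spindle checkpoint genes (Bub1, Bub1b, Mad2l1, Ttk and Cdc20) had a median of -0.05 and a range of -0.11 to 0.12. Cdc20 (Entrez gene 64515), which activates the ligase that ends mitosis, had 33.5, 29.6 and 35.1 CPM with lenti-TCF7L2, 37.9, 40.6 and 37.3 with lenti-shTCF7L2, and 33.7, 27.6 and 32.2 with lenti-NC. Kif20a (Entrez gene 361308), a motor of cell division, had 51.5, 57.2 and 56.0 CPM with lenti-TCF7L2, 65.9, 69.5 and 64.9 with lenti-shTCF7L2, and 60.0, 48.3 and 49.3 with lenti-NC. In both genes the lenti-TCF7L2 and lenti-NC values overlapped and the lenti-shTCF7L2 values lay above them. Their differences with lenti-TCF7L2 were 0.07 (95% interval -0.16 to 0.31) and 0.06 (-0.15 to 0.28). Nusap1, a spindle protein, differed by 0.27 (adjusted p = 0.0952), and Mki67 and Top2a, which organise chromosomes, by -0.24 and -0.09 (adjusted p = 0.436 and 0.561).

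Other settings and single libraries bear on these calls. The groups did not overlap in 9 replication members that were higher and 2 that were lower, and in 2 mitosis members that were higher, where 46.8% of tested genes did not overlap, 24.9% higher and 22% lower. Mcm5, Mcm6, Cdt1 and Rrm1 passed in all 23 alternative settings. The count of 7 replication calls became 4, these same genes, without lenti-NC replicate 2 and when only the 6 libraries compared were fitted, where 19.9% of genes were called (10.9% higher and 9.07% lower). Without lenti-TCF7L2 replicate 3, which carries the strongest length trend, 10 replication members passed and the replication median was 0.18, where 42.7% of all tested genes were called, a share like that of the members. Mcm3 lost its call in 7 settings (adjusted p up to 0.112), Mcm7 in 3 (up to 0.0679) and Cdc45 in 9 (up to 0.119), each among them without lenti-NC replicate 2. Cdk1 lost its call without lenti-NC replicate 2 (adjusted p = 0.0514), with 6 libraries (0.0557) and with the replicate block and length adjustment together (0.0567).

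The hairpin virus was set against the control virus next. The edgeR fit took its spread from all 9 libraries, those of lenti-TCF7L2 included. Over all tested genes the median coefficient of variation was 17.0% with lenti-TCF7L2, 5.52% with lenti-shTCF7L2 and 5.62% with lenti-NC. Among replication members edgeR called E2f1 lower and 0 higher, where 3.64% of tested genes were called, 1.32% higher and 2.32% lower. DESeq2 and limma on log2(FPKM + 1) each called 1 lower and 1 higher, Rrm2 (adjusted p = 0.0149 and 0.0424). Of all genes they called 5.54% and 4.34%. E2f1 averaged 11.9 ± 1.43 CPM with lenti-shTCF7L2 and 18.0 ± 2.18 with lenti-NC (SD, n = 3 each; 0.665-fold, log2 difference -0.59, SE 0.125, adjusted p = 0.0364). That call was lost in 9 of 23 settings, among them without any 1 of the lenti-NC or lenti-shTCF7L2 replicates (adjusted p from 1.8e-04 to 0.161 over the settings). Rrm2 lay on the other side: all its lenti-shTCF7L2 values exceeded all lenti-NC values, a difference of 0.45 (SE 0.105) that missed the threshold in the fit of 9 libraries (adjusted p = 0.0529) and passed with 6 (5.1e-06). Small negative differences prevailed, in 18 of 23 replication members (median -0.04, against 0.0084 over all genes). All 6 Mcm differences were negative (median -0.10). The largest were in Mcm5 (-0.25, adjusted p = 0.162) and Mcm2 (-0.20, adjusted p = 0.29), whose groups did not overlap, and Cdt1 differed by -0.29 (adjusted p = 0.315) with groups that overlapped.

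Mitosis members had mostly positive differences, none of which passed the test in the fit of 9 libraries. Of 20 members 0 were called in edgeR. At an unadjusted p under 0.05, 4 were higher and 1 lower, where 847 and 1040 of the 11761 tested genes were. DESeq2 called 0 higher and 1 lower, where 1.84% and 3.7% of all genes were. Limma on log2(FPKM + 1) called 0, where 4.34% of all genes were called. Yet 18 of 20 differences were positive, with a median of 0.24, and in 10 members all lenti-shTCF7L2 values exceeded all lenti-NC values (1 member was wholly below), where 40.9% of tested genes did not overlap, 19.9% higher and 21% lower. Kif20a differed by 0.35 (SE 0.0964, adjusted p = 0.0998) and Cdc20 by 0.31 (SE 0.103, adjusted p = 0.163). Ccnb1, shown after its values were seen, had 36.2, 42.0 and 41.6 CPM with lenti-shTCF7L2 against 37.1, 26.4 and 30.3 with lenti-NC, a difference of 0.35 (adjusted p = 0.22) with overlap through the first control library. Bub1, likewise, had 24.7, 25.2 and 22.4 CPM against 21.7, 18.4 and 19.7 (0.28, adjusted p = 0.256). By role the medians were 0.21 for the cyclins and Cdk1, 0.24 for the kinases, 0.27 for the checkpoint and 0.29 for the spindle motors and proteins. The chromosome structure genes Mki67 and Top2a had a median of -0.18, and the transcription factor Foxm1 differed by 0.08.

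Top2a, the topoisomerase that untangles sister chromatids, differed in the opposite direction from most mitosis members. Chosen after its values were seen, it had 45.2, 47.3 and 45.3 CPM with lenti-shTCF7L2, against 67.4, 56.3 and 57.1 with lenti-NC. The groups did not overlap, and the difference was -0.39 (adjusted p = 0.0993 with 9 libraries and 8.5e-05 with 6). Fitted with only the 6 libraries of these groups, where 28.5% of genes were called (13% higher and 15.5% lower), 10 mitosis members were higher and 1 lower: Kif20a (adjusted p = 4.5e-04), Cdc20 (0.00261), Ccnb1 (0.005) and Bub1 (0.0131) were among those higher, and Top2a was the lower one. In that fit 1 replication member was higher (Rrm2) and 4 lower (Mcm2, Mcm5, Rrm1 and E2f1). Without lenti-TCF7L2 replicate 3 the count in the fit of all groups was 5 mitosis and 4 replication members, where 17.4% of tested genes were called. Of the cell markers, 0 of 8 cardiomyocyte and 0 of 8 endothelial markers passed in edgeR (0 and 1 at an unadjusted p under 0.05), DESeq2 or limma, while 3 of 8 fibroblast markers (Tcf21, Dcn and Lum) and 1 of 5 epicardial markers (Aldh1a2) fell, and 2 of 7 macrophage markers (Lyz2 and Csf1r) and 1 of 8 smooth muscle and pericyte markers (Cnn1) rose. Of all tested genes edgeR, DESeq2 and limma called 3.64%, 5.54% and 4.34%. In the fit of 6 libraries 4 of 8 cardiomyocyte markers were lower and 0 higher, and 6 of 8 fibroblast markers lower and 1 higher. Of the epicardial markers 4 of 5 were lower there and 0 higher. In that fit 2 smooth muscle and pericyte markers were higher and 2 lower, 2 macrophage markers higher and 1 lower, and 1 endothelial marker higher and 1 lower. Their part in the differences was not tested.

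**Figure D5:**
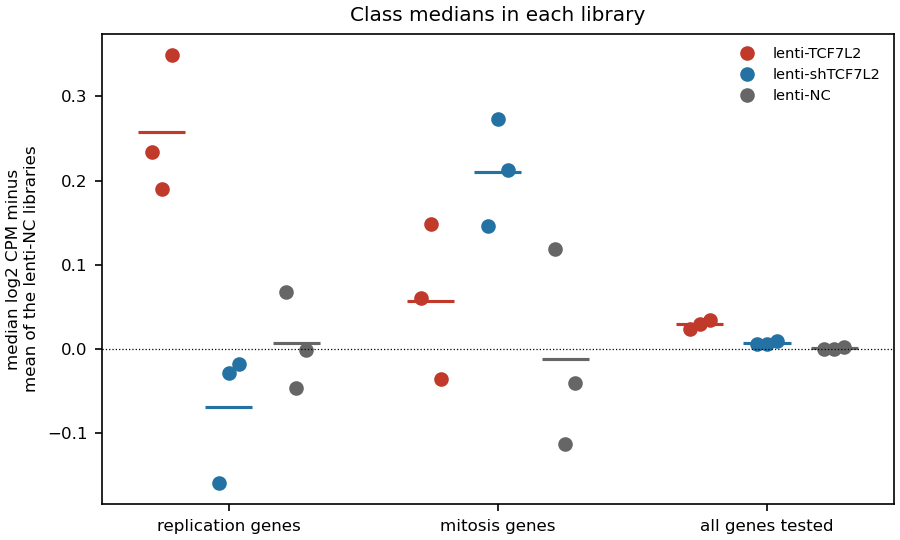
Median log2 CPM of each class relative to the lenti-NC mean, for each of the 9 libraries (points), with the mean of each group as a line and all tested genes beside. Replication members lie at 0.19 to 0.35 in the lenti-TCF7L2 libraries and at -0.16 to -0.02 in the lenti-shTCF7L2 libraries. Mitosis members lie at -0.04 to 0.15 and at 0.15 to 0.27 in the same groups.

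Replication members had medians of 0.23, 0.19 and 0.35 in the lenti-TCF7L2 libraries, -0.16, -0.03 and -0.02 in the lenti-shTCF7L2 libraries, and 0.07, -0.05 and -0.0015 in the lenti-NC libraries. Mitosis members had medians of 0.06, 0.15 and -0.04 with lenti-TCF7L2, 0.15, 0.27 and 0.21 with lenti-shTCF7L2, and 0.12, -0.11 and -0.04 with lenti-NC. In all 3 lenti-TCF7L2 libraries the replication median lay above the mitosis median, and in all 3 lenti-shTCF7L2 libraries below it. In lenti-TCF7L2 library 2, which had the weakest length trend of its group, the medians were closest (0.19 and 0.15). Replication members ran up to 5321 bases and mitosis members up to 10069, and the part of gene length in the gap was not tested. Both sets of medians are relative to the same controls and carry no test.

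The direct comparison of lenti-TCF7L2 with lenti-shTCF7L2 sets the TCF7L2 viruses against each other. It shares its libraries with both comparisons above. Of 23 replication members 10 were higher with lenti-TCF7L2 and 0 lower, where 33.1% of genes were called, 18.4% higher and 14.7% lower. They were Mcm2, Mcm3, Mcm5, Mcm6, Mcm7, Cdt1, Cdc45, Pcna, Ccne1 and E2f1. Over all 23 members the groups did not overlap in 10 that were higher and 2 that were lower, where 47.2% of tested genes did not overlap, 24.1% higher and 23.2% lower. Cdt1 was 1.93-fold higher (log2 difference 0.95, SE 0.124, adjusted p = 5.4e-04), E2f1 differed by 0.71 (SE 0.124, adjusted p = 0.00243) and Mcm5 by 0.64 (adjusted p = 4.7e-04). Ccne1 had 14.3, 13.9 and 19.3 CPM with lenti-TCF7L2 against 10.1, 10.8 and 11.5 with lenti-shTCF7L2 (0.55, adjusted p = 0.0162). The replication median was 0.27 and the Mcm median 0.53. The count was 6 without lenti-shTCF7L2 replicate 1 or 2, where 23.3% and 22.3% of genes were called, and 8 with only the 6 libraries compared, where 22.7% of genes were called (13.3% higher and 9.32% lower). Mcm3, Mcm5, Mcm6, Cdt1 and E2f1 passed in all 23 alternative settings. Between these groups 7 of 8 cardiomyocyte markers were lower and 0 higher, 6 of 8 endothelial, 4 of 8 fibroblast and 4 of 5 epicardial markers were higher and 0 lower, 4 of 7 macrophage markers were higher and 1 lower, and 3 of 8 smooth muscle and pericyte markers were higher and 2 lower; their part in the differences was not tested.

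Of 20 mitosis members 1 was lower with lenti-TCF7L2 than with lenti-shTCF7L2 and 0 were higher, with a median of -0.06. That gene was Bub1, a kinase of the spindle checkpoint, at 18.9, 20.1 and 16.3 CPM with lenti-TCF7L2, against 24.7, 25.2 and 22.4 CPM with lenti-shTCF7L2 (-0.39, SE 0.111, adjusted p = 0.0257). The Bub1 call was lost in 7 of 23 settings. Among them were the length adjustment (-0.23, adjusted p = 0.0582) and the fit of only the 6 libraries compared (adjusted p = 0.0632). Kif20a (-0.28, adjusted p = 0.0506), Ccnb1 (-0.37, 0.0598) and Kif11 (-0.40, 0.071) came near the threshold on the same side, and Top2a (0.30, 0.0582) and Cdk1 (0.23, 0.089) on the other. In DESeq2 3 mitosis members were lower and 0 higher, where 15.8% of all genes were lower and 17.9% higher. The count depended on single libraries, as did that of all genes. Leaving out replicate 2 of lenti-TCF7L2 gave 9 and leaving out its replicate 3 gave 7, where 45.7% and 45.6% of all tested genes were called, so these shares of the members were no higher than that of genes at large. It was 3 and 2 when replicate 1 or 2 of lenti-NC was left out (28.4% and 28.3% of genes), and 0 without lenti-TCF7L2 replicate 1 (26% of genes) or lenti-shTCF7L2 replicate 1 or 2.

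Promoter letters were set beside the differences. Among replication genes with an E2F match 5 of 10 rose with lenti-TCF7L2 (median 0.41), and among those without 1 of 8 rose and 1 fell (median 0.27). Among tested genes outside the set, 17.4% of those with an E2F match and 17.9% of those without were higher. Cdk1, the mitosis gene that rose, had the only E2F match among the 17 mitosis promoters. The 12 mitosis genes with a CHR had a median of 0.18 with lenti-shTCF7L2 against lenti-NC, and the 5 without had 0.31.

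Other genes of the same processes were read from lists. Of 41 tested replication genes outside the set, 8 rose and 2 fell with lenti-TCF7L2, where 18% of all tested genes rose and 13.8% fell (median 0.22, 33 of 41 positive). The share that rose was near that of all genes. Pold1, the catalytic subunit of polymerase δ, had 22.6, 23.3 and 22.3 CPM with lenti-TCF7L2, 13.9, 15.6 and 17.3 with lenti-shTCF7L2, and 14.6, 14.6 and 13.4 with lenti-NC. It rose by 0.67 (adjusted p = 0.00137), with lenti-TCF7L2 above all other libraries. The clamp loader subunit Rfc2 rose by 0.60 (adjusted p = 0.0127), and the phosphatase Cdc25a, which activates CDK2, fell by 0.27 (adjusted p = 0.0159). Without lenti-NC replicate 2 neither Rfc2 (adjusted p = 0.0555) nor Cdc25a (0.0628) passed, and Cdc25a did not pass without lenti-NC replicate 1 (0.0514). With lenti-shTCF7L2 0 of the 41 were called in edgeR, DESeq2 or limma (median 0.01), where 3.64%, 5.54% and 4.34% of all genes were. In edgeR 4 were higher and 1 lower at an unadjusted p under 0.05, where 847 and 1040 of the 11761 tested genes were.

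Of 42 tested mitosis genes outside the set, 5 rose and 2 fell with lenti-TCF7L2, both below the shares of all tested genes, 18% and 13.8% (median 0.07). Kpna2, an import receptor that also serves the spindle, had 185, 171 and 186 CPM with lenti-TCF7L2, 294, 293 and 292 with lenti-shTCF7L2, and 302, 288 and 298 with lenti-NC. It fell by 0.71 (adjusted p = 1.0e-04), far below the other 6 libraries. The checkpoint gene Mad1l1 rose by 0.57 (adjusted p = 0.00593) and the transcription factor Mybl2 by 0.58 (adjusted p = 0.0178), which did not pass without lenti-NC replicate 2 or 3 (0.0672 and 0.0701). With lenti-shTCF7L2 0 were called in edgeR, where 3.64% of all genes were. In DESeq2 1 was higher and in limma 1, where 1.84% and 1.93% of all genes were higher. Positive differences were found in 36 of 42 (median 0.15). In edgeR 7 were higher and 0 lower at an unadjusted p under 0.05, where 847 and 1040 of the 11761 tested genes were. With only the 6 libraries of these groups 13 were higher and 0 lower, where 13% of all tested genes were higher and 15.5% lower.

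Of 21 tested G1 regulators, 5 rose and 4 fell with lenti-TCF7L2, where 18% of all tested genes rose and 13.8% fell. Cdc25a was on this list and on the list of other replication genes, so its fall is counted in both. Myc had 40.7, 43.8 and 44.5 CPM with lenti-TCF7L2, 34.6, 32.9 and 29.7 with lenti-shTCF7L2, and 23.9, 24.0 and 22.3 with lenti-NC. MYC is a transcription factor of growth and S phase entry, and it rose with both TCF7L2 viruses, by 0.88 (adjusted p = 1.8e-04) and 0.47 (adjusted p = 0.0203). The call with lenti-shTCF7L2 was lost in 6 of 23 settings: with the replicate block and without any 1 lenti-NC replicate or lenti-shTCF7L2 replicate 1 or 2 (adjusted p up to 0.106). The D cyclins, which open G1, parted: Ccnd1 fell by 0.41 (adjusted p = 0.00302) and Ccnd3 rose by 0.31 (adjusted p = 0.00691). E2f6, a repressing E2F factor, fell with both viruses, by 0.24 with lenti-TCF7L2 (adjusted p = 0.0262) and 0.37 with lenti-shTCF7L2 (adjusted p = 0.0207). Its call with lenti-TCF7L2 was lost in 8 of 23 settings (adjusted p up to 0.0929) and that with lenti-shTCF7L2 in 7 (up to 0.114), both among them without any 1 lenti-NC replicate, and the second also without any 1 lenti-shTCF7L2 replicate. Of 11 genes listed as brakes of cyclin-dependent kinases, which include the transcription factor Meis1, 1 rose with lenti-TCF7L2. This was Pkmyt1, which holds CDK1 inactive, with 13.8, 11.9 and 13.6 CPM with lenti-TCF7L2, 8.51, 8.48 and 7.17 with lenti-shTCF7L2, and 7.00, 7.34 and 7.75 with lenti-NC (0.83, adjusted p = 8.9e-04). The hairpin virus gave 0 calls among these 11 genes in edgeR, DESeq2 and limma, where 3.64%, 5.54% and 4.34% of all genes were called. In edgeR 1 was higher and 1 lower at an unadjusted p under 0.05, where 847 and 1040 of the 11761 tested genes were.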

How the data were processed

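Messenger RNA selected with oligo(dT) was sequenced on a BGISEQ-500, per the labels' protocols. HISAT2, Bowtie2, RSEM 1.3.1, DESeq2 1.4.5 and build rn6 were named, without roles, per the submitters' processing notes. Per the file headers, the authors deposited expected counts (estimated fragments per gene), FPKM and gene length per library. Between 84.2% and 84.5% of listed expected counts were whole, and genes not listed in a library were set to 0. Groups came from the sample titles.

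Expected counts were rounded, filtered with filterByExpr (11761 genes kept, 2846 set aside), scaled by TMM and tested with edgeR 4.0.16 (2-sided quasi-likelihood test) in R 4.3.3, all 9 libraries in 1 fit with group as the only term. P-values were adjusted by Benjamini and Hochberg over all tested genes, and an adjusted p under 0.05 was a call. The biological coefficient of variation was 14.9%. The method was tested on simulated counts with the same spread in all groups and no length trend. That test therefore does not cover the wider spread and length trend of the lenti-TCF7L2 libraries. Tried as well were RLE scaling, upper-quartile scaling, no or a stricter filter (10 counts in 6 libraries), DESeq2 1.42.0, limma 3.58.1 on log2 FPKM (pseudocount 1 or 0.1; genes averaging FPKM 1 or more, or all genes), a replicate block, a length adjustment (lowess, span 0.3), library sizes without the top 10 genes, 6 libraries only and each library left out. Class medians use log2 CPM, prior count 2.

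The members and lists were chosen with earlier results of these data known. Shown per library were members called against lenti-NC and the 5 of highest FPKM per class; from lists, up to 3 called genes of smallest adjusted p. Promoters came from RefSeq (GRCr8), and their motifs were matched by exact letters; no rn6 coordinates were used.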

Additional observations from a re-analysis of the deposited data

How the results depend on the processing

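Most member calls held: over the 23 alternatives, values of called members stayed past the threshold in 396 cases and lost it in 64, and values not called passed in 133. The log2 difference of Cenpf with lenti-TCF7L2 against lenti-NC, -0.05 and not called, was 0.40 with the length adjustment (adjusted p = 0.0332) and 0.23 with that adjustment and no lenti-TCF7L2 library 3 (adjusted p = 0.0213).

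With lenti-TCF7L2 against lenti-NC, replication calls numbered 7, 11 with the length adjustment and no lenti-TCF7L2 library 3 (where 47.3% of all genes were called, a share like that of the members), 4 with only the 6 libraries compared, and 4 to 10 with each library left out. Of all tested genes 31.8% were called in the fit of 9 libraries, 19.9% with 6 libraries and 20.5% to 46.5% with each library left out. The replication median of 0.30 was 0.20 with the length adjustment and no library 3, and 0.18 to 0.30 with each library left out. The mitosis median of 0.07 was -0.0032 to 0.13 with each library left out. The mitosis call (1) became 2 with upper-quartile scaling (33.2% of all genes), 2 with the length adjustment (39.6%) and 4 with that adjustment and no library 3 (47.3%). It became 0 with the replicate block and length adjustment (36.4%), 0 with 6 libraries, and 0 to 4 with each library left out.

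With lenti-shTCF7L2 against lenti-NC, the replication call (1) became 2 with upper-quartile scaling, DESeq2, limma at either pseudocount, the length adjustment, the replicate block with length adjustment, or library sizes without the top 10 genes. Of all tested genes 3.64% were called in the fit of 9 libraries and 3.44% to 8.41% in these settings. The replication call became 0 in limma with no filter (2.85% of all genes) and 5 with the length adjustment and no library 3 (22.1%). It became 5 with 6 libraries (28.5%) and 0 to 4 with each library left out (0.742% to 17.4%). Mitosis calls (0) became 1 in DESeq2 (5.54% of all genes), 1 with the replicate block and length adjustment (5.78%) and 3 with the length adjustment (8.41%). They became 7 with that adjustment and no library 3 (22.1%), 11 with 6 libraries (28.5%), and 0 to 5 with each library left out (0.742% to 17.4%).

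Between lenti-TCF7L2 and lenti-shTCF7L2, replication calls (10) ran from 6 to 13 and their median (0.27) from 0.23 to 0.39 with each library left out. Of all tested genes 33.1% were called in the fit of 9 libraries, and 22.3% to 45.7% with each library left out. The mitosis call (1) became 2 with RLE scaling, upper-quartile scaling, the stricter filter, library sizes without the top 10 genes, or the replicate block with length adjustment (32.8% to 39.1% of all genes). It became 3 in DESeq2 (33.8%), 0 in limma with no filter (26.5%) and 5 with the length adjustment (41.4%). With that adjustment and no library 3 it was 6 (50.2% of all genes), and with 6 libraries 0 (22.7%). With each library left out it was 0 to 9, while the mitosis median (-0.06) ran from -0.18 to -0.028. The cause of these shifts was not tested.

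Whether replicate numbers pair the libraries was not settled. Residual correlations of same-numbered libraries ran from -0.067 to 0.151, with 2 of 9 over 0.1, and those of differently numbered libraries from -0.159 to 0.111. With the replicate block alone, 5 replication and 1 mitosis members were called with lenti-TCF7L2 against lenti-NC, 0 and 0 with lenti-shTCF7L2 against lenti-NC, and 8 and 1 between the TCF7L2 viruses. Of all tested genes 29.4%, 2.07% and 31% were called in the same comparisons. With 3 libraries a group, the smallest member difference called was 0.35 on the log2 scale, and cell makeup was not separated from level per cell.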
